A study of Mus musculus with 6 samples.

Results

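C1q and complement genes were followed in mouse bone marrow: C1qa, C1qb, C1qc, C2, C3, C3ar1, Cfp and Cfb, found in the deposited table by their symbols. They are 8 of the 14992 genes in the table, and all 8 passed the filter on low counts. Complement is a cascade of plasma and cell-surface proteins that tags particles, microbes and dying cells for uptake by phagocytes. C1q, built from the products of C1qa, C1qb and C1qc, recognises targets and starts the classical pathway, while the alternative pathway turns over on its own on C3 and factor B. Most complement proteins are made by the liver, but C1q comes mainly from tissue macrophages, and properdin and C3 are also made by myeloid cells, including those of the bone marrow.

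RNA was sequenced from bone marrow of irradiated C57BL/6 mice that had received whole marrow of Dnmt3a knockout mice. Dnmt3a is a DNA methyltransferase, and the protocol calls the transplanted Dnmt3a-null cells leukaemic. Recipients got vehicle (libraries 1, 2 and 3) or a compound that blocks PI3K, a lipid kinase, in its alpha and beta isoforms, at 75 mg/kg (libraries 1, 3 and 5) for 21 days, and both groups carry the knockout marrow. Marrow with intact Dnmt3a was not analysed here. The titles of the inhibitor libraries begin with Bay, and the labels do not otherwise name the compound. The labels do not give how Dnmt3a was deleted or the recipients' age, nor how much of the harvested marrow was of donor origin. They leave unstated whether the libraries are from separate mice, and the p-values then speak only to the spread among these libraries, which may be technical.

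All 8 genes are encoded on the minus strand. In the GENCODE annotation of GRCm38, C1qa (chr4:136895917-136898803), C1qc (chr4:136889804-136893065) and C1qb (chr4:136880129-136886187) lie in 1 cluster of 18675 bases, with gaps of 2851 and 3616 bases between genes. Cfb (chr17:34856374-34862518) lies 85 bases from C2 (chr17:34862604-34898265). C3 lies at chr17:57203970-57228136, C3ar1 at chr6:122847138-122856161 and Cfp at chrX:20925454-20931555.

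RefSeq promoter entries (GRCm38.p6) were found for 5 of the 8 genes: C1qb, C1qc, C3, C3ar1 and Cfp. The 250 bases upstream of the RefSeq start are printed for C1qb and C1qc, whose levels ran together across libraries, and for C3, whose level did not follow them. Capitals mark matches, on either strand, to the PU.1 core GAGGAA, the MAF TGCTGA site or a kappa B pattern (GGGA and CC with any 4 bases between them).
C1qb promoter, chr4:136886201-136886450, minus strand: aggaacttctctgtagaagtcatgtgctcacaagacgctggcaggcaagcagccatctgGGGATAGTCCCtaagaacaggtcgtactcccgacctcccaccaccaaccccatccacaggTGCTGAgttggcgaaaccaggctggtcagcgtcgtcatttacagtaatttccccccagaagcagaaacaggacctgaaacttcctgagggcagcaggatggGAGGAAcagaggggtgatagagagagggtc
C1qc promoter, chr4:136892915-136893164, minus strand: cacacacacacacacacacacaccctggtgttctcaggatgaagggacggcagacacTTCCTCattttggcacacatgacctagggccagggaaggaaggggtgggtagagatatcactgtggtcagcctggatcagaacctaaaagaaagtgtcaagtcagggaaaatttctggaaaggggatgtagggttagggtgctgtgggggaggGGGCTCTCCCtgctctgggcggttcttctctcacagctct
C3 promoter, chr17:57228137-57228386, minus strand: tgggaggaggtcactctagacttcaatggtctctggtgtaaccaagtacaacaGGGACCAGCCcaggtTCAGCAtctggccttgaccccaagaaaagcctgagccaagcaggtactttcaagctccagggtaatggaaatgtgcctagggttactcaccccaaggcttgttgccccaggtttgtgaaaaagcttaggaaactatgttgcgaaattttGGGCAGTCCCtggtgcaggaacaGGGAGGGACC
In the C1qb window the PU.1 core stood 30 to 25 bases before the start, the MAF site 131 to 126 bases before it, and the first run of capitals holds overlapping kappa B matches on both strands. In the C1qc window the PU.1 core was on the opposite strand, 193 to 188 bases before the start, with a kappa B match on the opposite strand 40 to 31 bases before it, and the window overlaps the start of the longer GENCODE model. The C3 window held 3 kappa B matches and a MAF site on the opposite strand, and no PU.1 core. The C3ar1 window held a MAF site, and the Cfp window none of the patterns searched. Of 32851 promoter windows of the same length, 23.3% held the PU.1 core, 16.1% the MAF site and 17.6% the kappa B pattern, so that each is common. Rarer patterns were also searched: an IRF element (GAAA followed after 2 bases by GAAA, in 2.98% of windows), a PU.1 and IRF composite (GGAA followed after 2 bases by GAAA, in 2.30%) and the C/EBP pattern TTGCNNCAA (in 1.74%). None of the 3 was found in these 5 windows, which says only that these letters are absent there.

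Of the 8 genes, 7 were lower in every inhibitor library than in every vehicle library, and C3 was the exception. By edgeR's quasi-likelihood test, adjusted over all 12806 tested genes, C2 and C3ar1 fell (2 of 8 past an adjusted p of 0.05), against 1.19% of all tested genes called lower, and 0 of 8 were higher, against 0.633% called higher. At an unadjusted p under 0.05, 7 of 8 were lower and 0 higher in edgeR, against 11.9% and 9.68% of tested genes. DESeq2 called 7 lower and 0 higher, against 926 lower (7.23%) and 628 higher of the 12806 tested genes. All inhibitor libraries lay below all vehicle libraries for 16.2% of tested genes. The median log2 fold change over the 8 genes was -2.62, beside 0.000931 over all tested genes. The 8 genes were chosen with earlier results of these data known, so these comparisons with all genes are descriptions and not a test.

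Library totals ran from 28198638 to 59384880 counts. Levels are given as CPM, read counts scaled to TMM-adjusted library totals. Vehicle 1 stood apart from vehicles 2 and 3: it held more of macrophage, stromal and erythroid marker transcripts and more of each of the 8 genes except C3. The fold changes of the 8 genes are therefore given with and without it. Without vehicle 1, edgeR called 6 of the 8 genes lower, against 4.89% of genes tested there. All 8 fold changes then came nearer to 0, with a median of -1.74 beside 0.0242 over all genes tested.

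**Figure D1:**
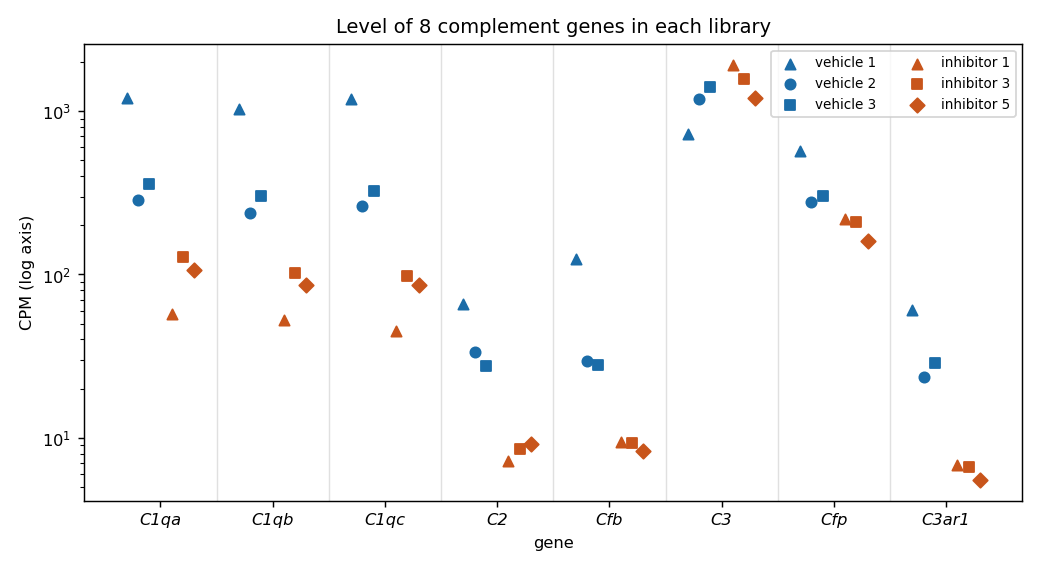
Level of each of the 8 genes in each library, in CPM on a log axis, with blue symbols for the 3 vehicle libraries, orange for the 3 inhibitor libraries and the symbol's shape for the library number. All orange symbols lie below all blue ones except for C3, where the lowest library is vehicle 1 at 728 CPM, and vehicle 1 is the highest library for the other 7 genes.

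The 3 C1q genes encode the A, B and C chains of the recognition molecule. They had the highest mean levels of the 8 in vehicle marrow on a per-length scale and lay far lower in inhibitor marrow. In CPM without length, C3 had the higher vehicle mean (1106, against 613 for C1qa). Without vehicle 1, C1qb and C3 overlapped per kilobase (means of 255 and 252 CPM). The level of C1qa was 1195, 287 and 356 CPM in vehicle libraries 1, 2 and 3, against 57.3, 129 and 106 CPM in inhibitor libraries 1, 3 and 5. C1qb stood at 1026, 237 and 304 CPM in the vehicles and at 52.6, 102 and 86.5 CPM in the inhibitor libraries. C1qc stood at 1178, 262 and 324 CPM in the vehicles and at 45.2, 98.5 and 85.7 CPM in the inhibitor libraries. In each of the 3, vehicle 1 was the highest library, inhibitor 1 the lowest, and the groups did not overlap. Summed, they reached 3399, 786 and 983 CPM in the vehicle libraries and 155, 329 and 278 CPM in the inhibitor libraries, so that the vehicle mean was 6.78 times the inhibitor mean, and 3.48 times without vehicle 1. The lowest vehicle library was still 2.39 times above the highest inhibitor library. In bulk marrow, fewer cells of a type and less RNA per cell cannot be told apart.

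With all 6 libraries the C1q genes missed the threshold in edgeR. The log2 fold changes were -2.65 ± 0.60 (SE; adjusted p = 0.0679) for C1qa, -2.70 ± 0.59 (adjusted p = 0.0627) for C1qb and -2.94 ± 0.63 (adjusted p = 0.0619) for C1qc, by edgeR with n = 3 per group. The spread within the vehicle group was wide: the coefficients of variation were 82.5%, 83.8% and 87.1% in vehicle marrow and 37.5%, 31.5% and 36.4% in inhibitor marrow. Vehicle 1 held 3.72, 3.79 and 4.02 times the mean of vehicles 2 and 3. Without vehicle 1 the changes were smaller and passed in edgeR, at -1.73 ± 0.30 (adjusted p = 0.0183) for C1qa, -1.75 ± 0.26 (adjusted p = 0.0111) for C1qb and -1.94 ± 0.29 (adjusted p = 0.0119) for C1qc. With any other library left out, the 3 genes did not pass in edgeR. For C1qa the edgeR adjusted p was 0.0633 without vehicle 2 and 0.104 without vehicle 3. It was 0.204, 0.204 and 0.187 without inhibitor 1, 3 or 5. Without vehicle 3 or any inhibitor library, edgeR called 0 genes of the whole table. DESeq2 on all 6 libraries called the 3 genes lower, with adjusted p of 2.33e-05, 1.17e-05 and 0.00318, and kept these calls with each library left out.

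**Figure D2:**
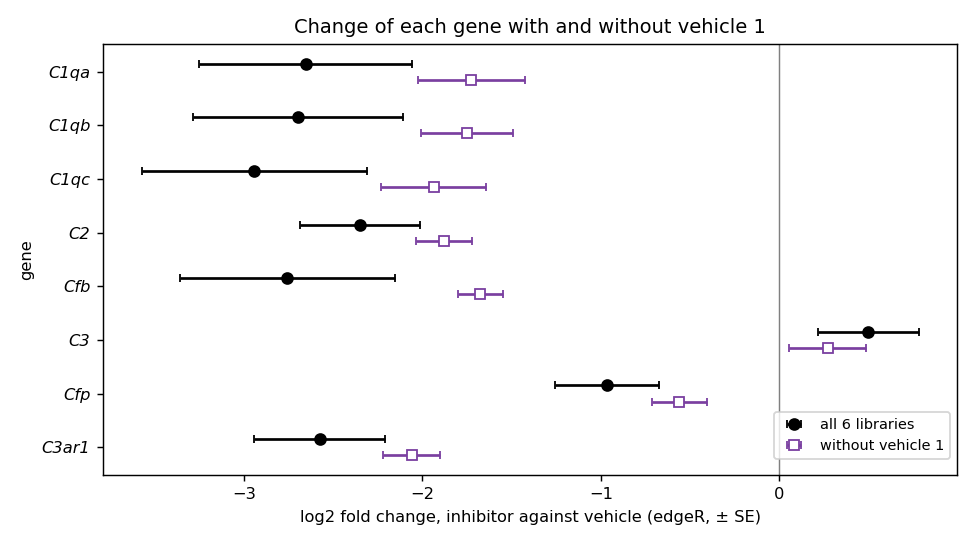
Log2 fold change of each gene, inhibitor against vehicle, from edgeR with its standard error as a bar, with filled black circles for all 6 libraries and open purple squares for the fit without vehicle 1. Each of the 8 values lies nearer to 0 without vehicle 1, most of all for Cfb (-2.76 to -1.68), and C3 alone lies above 0.

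The C1q transcripts kept nearly the same proportions in all libraries, with a small shift between groups. As a share of the summed C1q level per kilobase, C1qa made up 34.6% to 36% in the vehicle libraries, and 36.4%, 38.5% and 37.6% in inhibitor libraries 1, 3 and 5. C1qb made up 30.3%, 30.3% and 31.0% in the vehicles and 34.1%, 31.2% and 31.2% in the inhibitor libraries. C1qc made up 35.0%, 33.7% and 33.3% in the vehicles and 29.5%, 30.3% and 31.2% in the inhibitor libraries. The mean share of C1qc was thus 34.0% ± 0.917 (SD, n = 3) in vehicle and 30.3% ± 0.847 (SD, n = 3) in inhibitor marrow. The difference was -3.69 percentage points (-3.18 without vehicle 1), and -3.67 in raw counts without length. The size of each share depends on the deposited gene lengths. The groups did not overlap for any of the 3 shares, but the shares add up to the whole, so they are not separate results, and they were not tested. C1qc had its highest share in vehicle 1, where C1q was highest, and its lowest in inhibitor 1, where C1q was lowest.

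**Figure D3:**
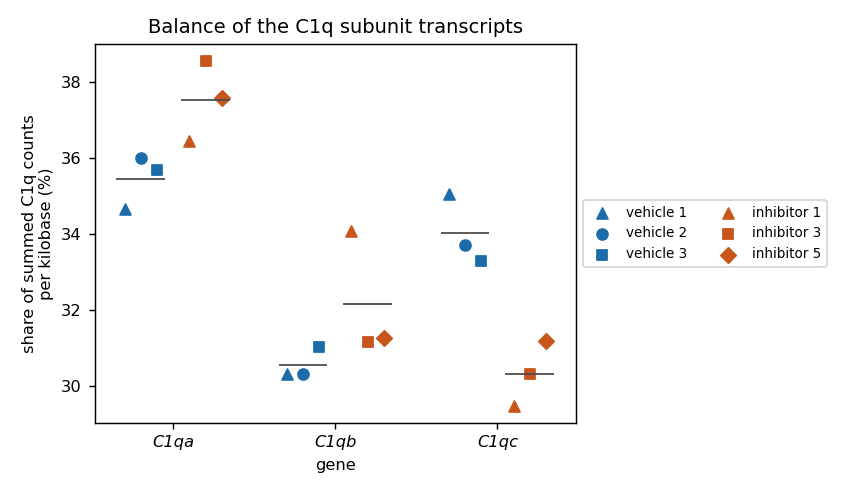
Share of C1qa, C1qb and C1qc in their summed counts per kilobase, in percent, for each library (blue vehicle, orange inhibitor, shape for the library number), with a horizontal line at each group's mean; the axis does not start at 0. The C1qc shares lie between 33.3% and 35.0% in vehicle and between 29.5% and 31.2% in inhibitor marrow.

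C2 and Cfb encode the paired serine proteases that carry the catalytic site of the classical and the alternative C3 convertase, and both were several-fold lower in inhibitor marrow. The level of C2 was 66.2, 33.7 and 27.7 CPM in vehicle libraries 1, 2 and 3, against 7.25, 8.60 and 9.14 CPM in inhibitor libraries 1, 3 and 5. The inhibitor libraries lay close together, and the lowest vehicle library was 3.03 times above the highest of them. C2 fell by 2.35 ± 0.34 on the log2 scale (SE, n = 3 per group; edgeR adjusted p = 0.0339), and by 1.88 ± 0.16 without vehicle 1 (edgeR adjusted p = 0.00165). The call was lost in edgeR without vehicle 3 (adjusted p = 0.0723) and without inhibitor 1, 3 or 5 (adjusted p = 0.148, 0.136 and 0.139), where edgeR called 0 genes of the whole table (1832 to 2398 had an unadjusted p under 0.05), and kept in DESeq2 with each of these libraries left out.

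Cfb, factor B, stood at 125, 29.6 and 27.8 CPM in the vehicles and at 9.37, 9.30 and 8.30 CPM in the inhibitor libraries. Vehicle 1 was 4.36 times the mean of the other 2 vehicles, the largest such ratio among the 8 genes, whereas the inhibitor libraries differed by 1.13 times at most. The log2 fold change was -2.76 ± 0.60 (edgeR adjusted p = 0.0627) with all libraries and -1.68 ± 0.13 (edgeR adjusted p = 0.00157) without vehicle 1. With any other library left out, Cfb did not pass in edgeR (highest adjusted p = 0.208, without inhibitor 3). DESeq2 called Cfb lower with each library left out. GENCODE places a further gene model, Gm20547, across both genes on the same strand. It shares 42.8% of the exonic bases of C2 and 79.5% of those of Cfb, and no value of it was used here. The rule by which shared reads were assigned is not stated. Zbtb12, on the opposite strand, shares 161 exonic bases with C2, and the library chemistry does not mark strand, so those reads cannot be told apart.

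C3, the central component that both convertases cleave, did not move with the others. The level of C3 was 728, 1193 and 1397 CPM in vehicle libraries 1, 2 and 3, against 1922, 1575 and 1200 CPM in inhibitor libraries 1, 3 and 5. The groups overlapped, since vehicle 3 lay above inhibitor 5, and vehicle 1 was the lowest library rather than the highest. The log2 fold change was 0.50 ± 0.28 (edgeR adjusted p = 0.338), and 0.27 ± 0.22 (edgeR adjusted p = 0.466) without vehicle 1. C3 passed the threshold in none of the 21 alternative fits. Across the 6 libraries, Pearson's r of log2(CPM + 1) between C3 and the other 7 genes ran from -0.869 (C1qa) to -0.726 (Cfp). Among those 7 genes r was at least 0.901, and 0.999 for each pair of C1q genes. These are descriptions over 6 libraries that share the 2 treatment groups and vehicle 1.

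Cfp encodes properdin, which stabilises the alternative convertase and is stored by neutrophils and made by monocytes. The level of Cfp was 572, 278 and 301 CPM in vehicle libraries 1, 2 and 3, against 219, 210 and 161 CPM in inhibitor libraries 1, 3 and 5. The groups did not overlap, but the lowest vehicle library was only 1.27 times above the highest inhibitor library. The log2 fold change was -0.97 ± 0.29 (edgeR adjusted p = 0.122), and -0.56 ± 0.16 (edgeR adjusted p = 0.0706) without vehicle 1, the smallest change among the 7 genes that were lower. DESeq2 called Cfp lower with all 6 libraries (adjusted p = 0.0195), and lost the call without inhibitor 1, 3 or 5 (adjusted p = 0.0598, 0.101 and 0.140).

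C3ar1 encodes the receptor for the anaphylatoxin C3a on myeloid cells. Its level was 60.3, 23.6 and 28.9 CPM in vehicle libraries 1, 2 and 3, against 6.80, 6.59 and 5.52 CPM in inhibitor libraries 1, 3 and 5. The inhibitor libraries were nearly level, and the lowest vehicle library was 3.47 times above the highest of them, the widest gap among the 8 genes. C3ar1 fell by 2.58 ± 0.37 on the log2 scale (SE, n = 3 per group; edgeR adjusted p = 0.0336), and by 2.06 ± 0.16 without vehicle 1 (edgeR adjusted p = 0.00157). As for C2, the edgeR call was lost without vehicle 3 (adjusted p = 0.0855) and without inhibitor 1, 3 or 5 (adjusted p = 0.141, 0.133 and 0.140), and DESeq2 kept it each time.

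Per kilobase of deposited gene length, the order of the 8 levels differed between the groups. The deposited length of C1qc is 1054 bases, against 1931 exonic bases in the GENCODE annotation. For C2 it is 2644 against 3872 bases. The order of genes thus depends on the length used, and other lengths were not tried. In vehicle marrow the mean levels in CPM per kilobase were 566 ± 467 for C1qa, 557 ± 486 for C1qc, 492 ± 412 for C1qb, 252 ± 107 for Cfp, 215 ± 66.7 for C3, 22.1 ± 20.3 for Cfb, 16.1 ± 7.83 for C2 and 8.75 ± 4.62 for C3ar1 (SD, n = 3). Each neighbouring pair overlapped between libraries except C3 and Cfb. In inhibitor marrow the order was C3 at 305 ± 70.3, Cfp at 129 ± 20.3, C1qa at 89.9 ± 33.7, C1qb at 75.7 ± 23.8, C1qc at 72.5 ± 26.4, Cfb at 3.27 ± 0.219, C2 at 3.15 ± 0.368 and C3ar1 at 1.47 ± 0.159 CPM per kilobase (SD, n = 3). There C3 lay above Cfp, C1qc above Cfb and C2 above C3ar1 without overlap, and the other neighbours overlapped. Among tested genes ranked by the group's mean level per kilobase, C1qa went from rank 116 in vehicle to rank 847 in inhibitor marrow, while C3 went from rank 291 to rank 216. Without vehicle 1 the vehicle ranks were 206 for C1qa and 239 for C3. The order there was C1qa, C1qc, C1qb (255 ± 44.4 CPM per kilobase, SD, n = 2) and C3 (252 ± 28.1), each overlapping the next, and C3 lay above Cfp without overlap.

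The other genes of the pathway were taken from fixed lists of 52 symbols, of which 41 were in the table and 33 were tested. Of these, edgeR called 1 higher and 2 lower (2 and 6 without vehicle 1), and the median log2 fold change was -0.36 (-0.20 without vehicle 1). An unadjusted p under 0.05 in edgeR was reached by 5 higher and 12 lower genes. Over all tested genes with all 6 libraries, edgeR called 0.633% higher and 1.19% lower. At the unadjusted p the shares were 9.68% higher and 11.9% lower. Without vehicle 1, edgeR called 399 of the same 12806 genes higher and 631 lower at the adjusted p. DESeq2 with all 6 libraries called 628 of them higher and 926 lower. Of 8 tested genes of classical and lectin initiation, edgeR called 0 (with an unadjusted p under 0.05 in 1 higher and 5 lower; DESeq2 called 1 higher and 4 lower), with a median of -1.20. Without vehicle 1 edgeR called 1 higher and 2 lower, with a median of -0.62. C4b, the C4 component cleaved by C1s, stood at 861, 172 and 293 CPM in the vehicles and at 35.9, 71.5 and 41.6 CPM in the inhibitor libraries, a log2 fold change of -3.16 ± 0.62 (edgeR adjusted p = 0.0552; -2.23 without vehicle 1, adjusted p = 0.00989). The split of reads between C4b and its near-identical neighbour C4a is uncertain. C1ra, a C1r protease of the C1 complex, had -1.18 on the log2 scale (edgeR adjusted p = 0.0758; -0.80 without vehicle 1, adjusted p = 0.0194). The ficolins, lectins that recognise sugars, lay in opposite directions: Fcna, a macrophage ficolin, had -2.76 (adjusted p = 0.108; -1.65 without vehicle 1, adjusted p = 0.104) and Fcnb, a ficolin of neutrophil precursors, had 0.88 (adjusted p = 0.0764; 0.68 without vehicle 1, adjusted p = 0.0278) by edgeR.

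Cfd, factor D, the protease that cleaves factor B, was the alternative-pathway protease on the lists beside Cfb and rose from a very low level. Its raw counts were 6, 1 and 8 in the vehicle libraries, against 64, 30 and 152 in the inhibitor libraries, which is at most 0.171 CPM in vehicle and at most 4.30 CPM in inhibitor marrow. The log2 fold change was 4.47 ± 0.71 (edgeR adjusted p = 0.0403, and 0.0161 without vehicle 1). The call was lost with vehicle 2, vehicle 3 or any inhibitor library left out (highest adjusted p = 0.141). Of 3 tested terminal components edgeR called 0 (with an unadjusted p under 0.05 in 0 higher and 1 lower, as called by DESeq2). C6, a component of the membrane attack complex, stood at 253, 60.6 and 86.8 CPM in the vehicles and at 13.5, 24.8 and 15.7 CPM in the inhibitor libraries, a log2 fold change of -2.89 ± 0.56 (edgeR adjusted p = 0.0541; -2.04 without vehicle 1, adjusted p = 0.00686). Hc, the mouse C5 gene, and C8g were at most 1.56 CPM in any library, with log2 fold changes of 1.17 and 0.61 (edgeR adjusted p = 0.256 and 0.331).

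Among 14 tested receptors for complement fragments and C1q, edgeR called 2 lower and 0 higher (with an unadjusted p under 0.05 in 4 lower and 1 higher), with a median of -0.20. Vsig4, the macrophage receptor for C3b and iC3b, fell from 357, 63.8 and 89.8 CPM in the vehicles to 4.46, 12.3 and 8.24 CPM in the inhibitor libraries, a log2 fold change of -4.35 ± 0.76 (edgeR adjusted p = 0.0434; -3.21 without vehicle 1, adjusted p = 0.00466). Lrp1, an endocytic receptor that binds C1q and collectin complexes with calreticulin, fell from 784, 296 and 504 CPM to 150, 136 and 125 CPM, a log2 fold change of -1.94 ± 0.33 (edgeR adjusted p = 0.0428; -1.54 without vehicle 1, adjusted p = 0.00953). Both calls were lost without vehicle 3 or any inhibitor library, at an adjusted p of at most 0.169 for Vsig4 and 0.177 for Lrp1. Among 7 tested regulators edgeR called 0 (with an unadjusted p under 0.05 in 2 higher and 2 lower; DESeq2 called 1 higher and 2 lower), and the median was -0.05. Without vehicle 1 edgeR called 1 lower, with a median of 0.48. Serping1, the C1 inhibitor, had -1.22 (adjusted p = 0.123; -0.68 without vehicle 1, adjusted p = 0.0742), and the membrane regulators Cd55 and Cd46 had 0.42 (adjusted p = 0.126) and 1.03 (adjusted p = 0.143) in edgeR.

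**Figure D4:**
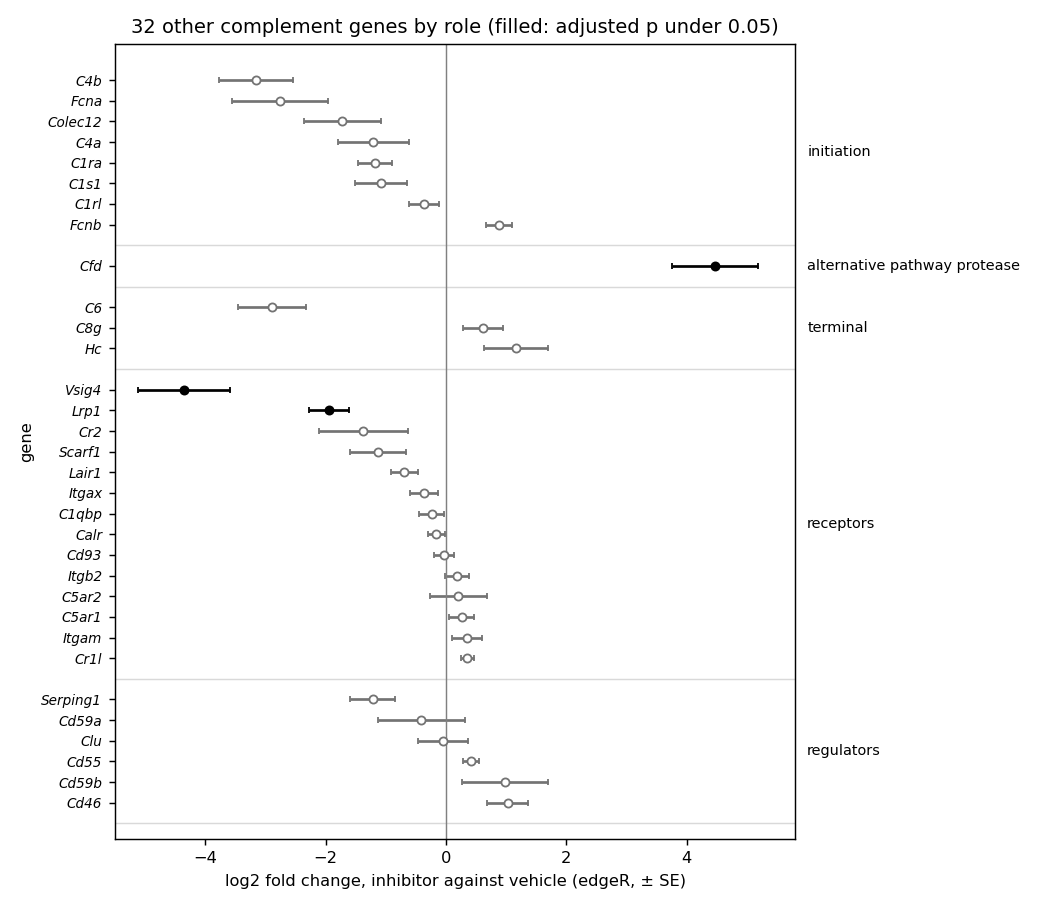
Log2 fold change of 32 of the 33 other tested complement genes, inhibitor against vehicle, from edgeR with all 6 libraries and the standard error as a bar, grouped by role and filled black where the adjusted p is under 0.05. The 3 filled points are Cfd at 4.47, Vsig4 at -4.35 and Lrp1 at -1.94.

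Most macrophage markers moved with the C1q genes. Of 20 macrophage markers, edgeR called 7 lower and 0 higher with all libraries, against 1.19% and 0.633% of tested genes. Without vehicle 1 it called 17 lower, against 4.89%. At an unadjusted p under 0.05, 18 were lower, against 11.9%. For 18 of the 20, all inhibitor libraries lay below all vehicle libraries, against 16.2% of tested genes. The summed level of the 20 markers ran from 3180 to 11430 CPM in vehicle and from 1347 to 1694 CPM in inhibitor marrow. Their median log2 fold change was -2.17 (-1.51 without vehicle 1). The mean log2(CPM + 1) of the 3 C1q genes was 10.1, 8.03 and 8.36 in the vehicle libraries, against 5.71, 6.78 and 6.54 in the inhibitor libraries, in the same order. That of the macrophage markers was 8.10, 6.69 and 6.81 in the vehicles and 4.92, 5.28 and 5.14 in the inhibitor libraries. The C1q mean minus the macrophage mean was 2.05, 1.35 and 1.54 in the vehicles (1.65 ± 0.362, SD, n = 3) and 0.79, 1.497 and 1.403 in the inhibitor libraries (1.23 ± 0.383, SD, n = 3). The groups overlapped in this difference, and the gap between their means, -0.42, was close to the spread within a group. It was -0.22 without vehicle 1 and -0.20 without inhibitor 1.

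**Figure D5:**
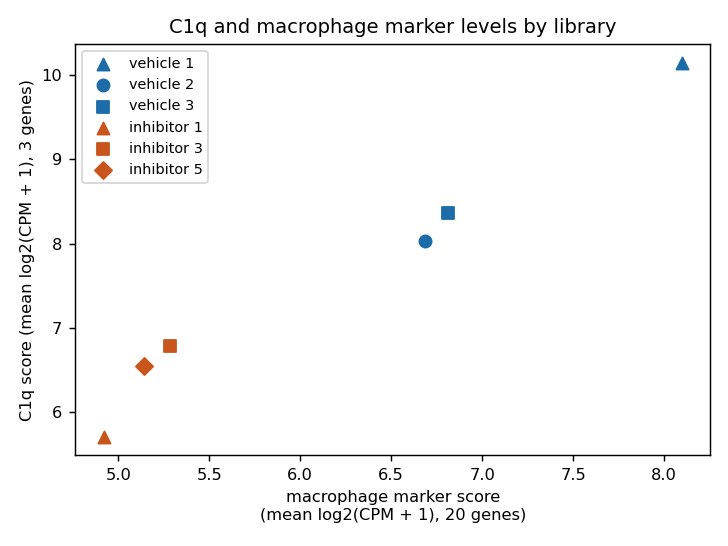
Mean log2(CPM + 1) of C1qa, C1qb and C1qc (vertical) against that of 20 macrophage markers (horizontal) in the 6 libraries, blue for vehicle, orange for inhibitor, the shape giving the library number. The libraries run from inhibitor 1 at the lower left (4.92 and 5.71) to vehicle 1 at the upper right (8.10 and 10.1).

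Markers of other cell types also differed. Of 12 monocyte markers edgeR called 4 lower and 0 higher, with a summed level of 3323 to 3725 CPM in vehicle and 2011 to 2769 CPM in inhibitor marrow. Of 14 neutrophil markers 2 were called higher and 0 lower, and their sum ran from 42831 to 69343 CPM in vehicle, lowest in vehicle 1, and from 107089 to 130242 CPM in inhibitor marrow. Of 8 B lymphoid markers 2 were called higher (36.8 to 79.2 CPM summed in vehicle, 110 to 343 CPM in inhibitor marrow). At an unadjusted p under 0.05 in edgeR, 8 monocyte markers were lower, and 11 neutrophil and 8 B lymphoid markers higher. DESeq2 called 7 monocyte markers lower, and 10 neutrophil and 7 B lymphoid markers higher. Over all tested genes, edgeR called 1.19% lower and 0.633% higher, or 11.9% and 9.68% at the unadjusted p. DESeq2 called 926 lower and 628 higher of 12806. Of 8 dendritic markers 1 was called higher and 0 lower. Their sum was 65.2 to 72.9 CPM in vehicle and 73.8 to 84.6 CPM in inhibitor marrow. The single dendritic markers went in both directions: 5 of the 8 had a negative log2 fold change, and the median was -0.44 (-0.17 without vehicle 1). For 4 of the 8 all inhibitor libraries lay below all vehicle libraries, and for 2 they lay above. Over all 12806 tested genes this held for 2079 below and 1849 above. None of 11 tested stromal markers and none of 8 erythroid markers passed in edgeR, at an unadjusted p under 0.05 in 5 and 0, and in DESeq2 in 3 and 0. Vehicle 1 held 839 CPM of stromal markers, against 319 and 332 CPM in the other vehicles, and 4592 CPM of erythroid markers, against 1367 and 1525 CPM. Of 10 hepatocyte markers 3 were matched: Apoa2 and Ahsg were at most 0.484 CPM in any library, and Hp, a gene that neutrophil precursors also express, was the only one tested (edgeR adjusted p = 0.243; unadjusted p = 0.0560; DESeq2 called 0). Without vehicle 1 edgeR called 9 monocyte markers, 2 stromal and 1 dendritic marker lower, and 7 neutrophil, 3 B lymphoid and 1 dendritic marker higher. Of the 12806 genes tested with all 6 libraries, that fit called 631 lower and 399 higher. The part of these cell types in the changes of the 8 genes was not tested.

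Of 12 transcription factors known at C1q and other complement genes, edgeR called 3 lower and 0 higher. Maf, a macrophage transcription factor, fell from 48.2, 56.4 and 57.5 CPM in the vehicles to 20.8, 21.8 and 22.7 CPM in the inhibitor libraries, a log2 fold change of -1.31 ± 0.12 (edgeR adjusted p = 0.0194). Vehicle 1 was not the highest vehicle library for Maf. Nr1h3, the liver X receptor alpha, fell by 2.08 ± 0.23 (edgeR adjusted p = 0.0240), and for Pparg the fold change was -0.92 (adjusted p = 0.105). The edgeR calls of Maf and Nr1h3 were lost without vehicle 3 or any inhibitor library, at an adjusted p of at most 0.124 and 0.137. Spi1, which encodes PU.1 and was added after its values were seen, had a log2 fold change of 0.16 ± 0.19 (edgeR adjusted p = 0.647). Maf is also among the 20 macrophage markers.

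The nearest tested genes on either side of the C1q cluster on chromosome 4 were read beside it. Ephb2, on one side, had 2.02, 2.02 and 2.58 CPM in the vehicles and 1.69, 2.20 and 1.90 CPM in the inhibitor libraries, with a log2 fold change of -0.20 ± 0.26 (edgeR adjusted p = 0.688). Zbtb40, on the other side, had 6.24, 15.1 and 17.7 CPM and 12.6, 15.8 and 12.7 CPM, with a log2 fold change of 0.07 ± 0.36 (edgeR adjusted p = 0.925). The groups overlapped for both genes.

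Genes with the most similar pattern were ranked by Pearson's r of log2(CPM + 1) over the 6 libraries, among the 9697 tested genes that averaged 5 CPM or more. The 10 most like the C1q mean were Tgm2 (r = 0.999), Axl, Aars, Pepd, Tmem86a, Sod2, Siglec1, Cadm1, Gaa and Plbd2 (r = 0.997). Axl and Siglec1 are also among the 20 macrophage markers above. Tgm2, a transglutaminase, stood at 573, 105 and 136 CPM in the vehicles and at 18.8, 39.0 and 33.6 CPM in the inhibitor libraries, and Axl, a receptor for apoptotic cells, at 742, 190 and 246 CPM and at 38.4, 74.1 and 65.1 CPM. Both share with C1q a highest level in vehicle 1 and a lowest in inhibitor 1. C2 was most like Clec4n, Hsd17b12 and Adgre4. C3ar1 was most like Tnfaip1, Rusc2 and Cbr2. Cfp was most like Cds1, Dok2 and Slc11a1, and Cfb was most like Tmem176a, Tmem176b and Marco, which is also a macrophage marker on the list. C3 was most like 6530402F18Rik, Rasgrp4 and Nlrp12, which like C3 were lowest in vehicle 1 and highest in inhibitor 1. These values of r describe 6 libraries in 2 groups, with vehicle 1 among them.

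The authors' deposited table holds its own comparison of inhibitor over vehicle. Lower values were listed for 7 of the 8 genes in the authors' deposited table at an adjusted p under 0.05. Of the 13809 genes with an adjusted p there, 907 were lower and 585 higher at that threshold. The adjusted p in the authors' deposited table was 2.24e-05 for C1qa, 1.11e-05 for C1qb, 3.96e-06 for C1qc, 1.11e-09 for C2, 2.47e-10 for C3ar1, 1.18e-05 for Cfb, 0.0219 for Cfp and 0.329 for C3. The log2 fold changes of the authors' deposited table, such as -2.92 for C1qc and 0.50 for C3, were close to those given above.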

How the data were processed

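RNA from 6 mouse marrow libraries was read. SMART-Seq v4 cDNA and Nextera XT libraries were made from column-purified RNA, per the labels' protocols, a chemistry without strand information. STAR was the aligner (build mm10) and featureCounts the counter, per the submitters' processing notes; their versions, annotation and strand setting are not given in the sources used here. Raw counts per gene and gene lengths were deposited in 1 table. The authors' fold (a ratio), log2 fold change, p-value and adjusted p-value stand beside them, and the test behind these is not stated.

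The main test was edgeR 4.0.16 in R 4.3.3, the quasi-likelihood F test on group after TMM, called at an adjusted p under 0.05 (Benjamini-Hochberg), after filterByExpr kept 12806 genes and dropped 2186. Its biological coefficient of variation was 25.2%. A standard error is the size of the log2 fold change divided by the square root of F. Alternatives were DESeq2 1.42.0, limma 3.58.1 (voom, with and without quality weights), other scalings and filters, an adjusted p under 0.10, a replicate block, and the omission of each library in turn, which for DESeq2 and for the C1q shares was added after seeing the data. For scores the prior was 1 CPM, with 0.1 and 5 CPM tried.

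The members were matched by symbol alone, but they, the gene lists, the motifs and the tests were chosen with earlier results of these data known. Named are the 8 members, every called gene of a complement list (or up to 4 with the smallest p where none was called), the called factors and those with the smallest p, and the genes of most similar pattern. A few genes covered by this rule stay in the counts, and their own values are not reported here. The steps were tested on simulated data, in which no library was made to stand apart from its group. No 2 libraries of a group were duplicates (chi-square per degree of freedom of at least 29.6).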

Additional observations from a re-analysis of the deposited data

How the results depend on the processing

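None of the 8 genes changed direction in any of 21 alternative fits. C2 and C3ar1 passed the threshold in 15 of the 21, C1qa, C1qb, C1qc and Cfb in 9, Cfp in 5 and C3 in 0. The edgeR fit called 234 genes in all, 2 of the 8 and 3 of the other complement genes. In the same order, DESeq2 called 1554, 7 and 14, limma voom 85, 0 and 0 (2646, 7 and 14 at an unadjusted p under 0.05), and voom with quality weights 2857, 7 and 16. An adjusted p under 0.10 in edgeR gave 1056 genes and 6 of the 8. Leaving out each library gave 0 to 1892 genes, 0 to 7 of the 8 and 0 to 13 other complement genes over edgeR and DESeq2. In edgeR that was 1034 genes without vehicle 1, 91 without vehicle 2 and 0 without vehicle 3 or any inhibitor library (1832 to 2398 at an unadjusted p under 0.05, and 749 to 1079 in DESeq2). With the replicate number as a block edgeR called 7 genes, 0 of the 8 and 0 other complement genes. At an unadjusted p under 0.05 these counts were 1438, 7 and 14. The labels do not say whether a shared number marks a pair. Libraries with the same number deviated from their group means with correlations of -0.514 and -0.103. So few libraries cannot decide whether they were paired. Other scalings and filters left the counts within 1.5 times. The C1q minus macrophage difference stayed below 0, from -0.57 to -0.20 with a library left out. The effect of counting depth on these calls was not tested.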
